A study of Homo sapiens with 30 samples.

Results

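Platelet-derived growth factor (PDGF) and vascular endothelial growth factor (VEGF) signal through receptor tyrosine kinases, and 10 genes of the family were followed here by their exact symbols in the deposited RNA tables. There were 6 receptors (PDGFRA, PDGFRB, KIT, KDR, FLT1 and FLT4) and 4 ligands (PDGFA, PDGFC, VEGFA and VEGFC). All 10 were found among the 41495 entries of the time-course table. The table of the day 3 (D3) sort listed 6 of them among 4648 genes, and that of the day 4 (D4) sort listed 8 among 4825.

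The samples came from H7, a human embryonic stem cell (hESC) line at passage 60, differentiated to cardiomyocytes. CHIR99021, which blocks GSK3 and so switches on WNT signalling, was given at 12 µM for 24 hours, followed by 5 µM of IWP4, a blocker of WNT secretion, for 2 days. The time course held hESC, unpurified cells of days 1, 2, 3, 4, 5, 6, 8, 10 and 15 (D1 to D15), and cardiomyocytes of day 31 purified on Percoll, a density gradient. The sorted groups were PMESO (ROR2-positive cells of D3), ROR2-negative cells of D3, CMESO (ROR2-positive, PDGFRa-positive cells of D4), and ROR2-positive, PDGFRa-negative cells of D4. Each of the 15 groups had 2 libraries, all from 1 cell line, and each table gives 1 value for both. Values are FPKM, fragments scaled to transcript length and to the size of the library. No spread between libraries can be given, and a difference over time has no replicate check. The words higher and lower are used over time for a difference of 1 or more in log2(FPKM + 1), a 2-fold change on that scale.

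PDGF receptors alpha (PDGFRA) and beta (PDGFRB) bind dimers of PDGF chains, and both act in mesenchymal cells; PDGFRA is also used to sort cardiac mesoderm. KIT, a close relative of these receptors, binds stem cell factor (KITLG) and is known from germ cells, pigment cells and blood progenitors. KDR is the main signalling receptor for VEGFA and marks early mesoderm and endothelium, FLT1 binds VEGFA tightly and can act as a decoy, and FLT4 is the lymphatic receptor for VEGFC. In the heart, muscle cells release VEGFA to neighbouring vessels.

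PDGFRA, KIT and KDR lie side by side on chromosome 4. In hg19, the build of the tables, KIT occupied chr4:55524085-55606881 and KDR chr4:55919227-55991756. The locus given for PDGFRA, chr4:54243810-55164414, is an interval shared with its neighbour CHIC2, not the extent of PDGFRA alone. Elsewhere, PDGFRB lies at chr5:149493400-149535435, FLT1 at chr13:28874489-29069265 and VEGFA at chr6:43737921-43754224. The PDGF chains lie at chr7:536895-559933 (PDGFA) and chr4:157681606-157892546 (PDGFC), while the sort tables give no locus for FLT4 and VEGFC. The 250 bases before the annotated RefSeq starts of these 3 neighbours are shown because the 3 did not go to the same side in the D4 sort: KIT was lower, PDGFRA and KDR higher, in CMESO. The sequences are on GRCh38.p14 and come from chr4:54229043-54229292 and chr4:54233710-54233959 for the 2 starts of PDGFRA, from chr4:54657707-54657956 for KIT (all on the plus strand), and from chr4:55125596-55125845 on the minus strand for KDR. They read 5′ to 3′, and capitals mark GGGCGG or its reverse complement, the GC box bound by SP1.
PDGFRA, first start: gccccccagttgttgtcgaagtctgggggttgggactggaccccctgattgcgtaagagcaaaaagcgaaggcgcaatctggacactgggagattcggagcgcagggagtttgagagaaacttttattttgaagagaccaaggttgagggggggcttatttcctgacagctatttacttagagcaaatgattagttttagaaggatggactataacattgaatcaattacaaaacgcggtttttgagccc
PDGFRA, second start: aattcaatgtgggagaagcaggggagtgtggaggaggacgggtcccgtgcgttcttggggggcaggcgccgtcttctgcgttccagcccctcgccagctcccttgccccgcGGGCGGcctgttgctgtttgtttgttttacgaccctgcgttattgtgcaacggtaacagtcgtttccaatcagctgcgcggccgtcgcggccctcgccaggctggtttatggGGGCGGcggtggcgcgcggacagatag
KIT: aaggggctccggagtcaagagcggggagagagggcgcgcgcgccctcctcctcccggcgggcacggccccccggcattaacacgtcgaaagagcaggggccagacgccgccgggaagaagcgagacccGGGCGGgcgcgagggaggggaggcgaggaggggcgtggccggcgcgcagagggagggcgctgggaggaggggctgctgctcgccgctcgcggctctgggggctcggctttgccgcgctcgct
KDR: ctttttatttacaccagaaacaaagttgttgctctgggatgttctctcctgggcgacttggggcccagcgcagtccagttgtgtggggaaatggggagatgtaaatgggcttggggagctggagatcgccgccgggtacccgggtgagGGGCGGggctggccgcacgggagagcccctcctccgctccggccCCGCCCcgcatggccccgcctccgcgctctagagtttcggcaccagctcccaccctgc
GC boxes numbered 0 and 2 before the 2 PDGFRA starts, 1 before KIT and 2 before KDR, on both strands together. Of 35116 such windows in the RefSeq table, 42.6% held at least 1. GATAA, the core of GATA factor motifs, was in none of the 4 windows and in 20.4% of all windows, and CACGTG, an E-box, was in none of the 4 and in 6.34% of all. The letters CG occurred 8 and 25 times before the PDGFRA starts, 34 times before KIT and 17 times before KDR, against a median of 11.0 over all windows. Only GC boxes were present, so no motifs of different kinds overlapped, and a match is not shown to be a bound site.

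The columns and labels were checked on a few genes. POU5F1, a pluripotency factor, stood at 1026 FPKM in hESC, and TNNT2, cardiac troponin T, at 2785 in cardiomyocytes. The summed FPKM of hESC was 1429857, against 617580 to 921107 elsewhere, so that column stands apart. Rescaling by the median ratio over 12149 genes shifted log2 values by -0.22 at D1, -0.15 at D2 and 0.37 at D15, and by less than 0.1 at the other time points. In the authors' deposited tables, ROR2 stood at 5.90 FPKM in ROR2-negative and 72.0 in PMESO cells, and PDGFRA, the D4 sort marker, at 8.28 in PDGFRa-negative and 304 in CMESO cells.

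Across the time course all 10 genes had their highest and lowest values at least 2-fold apart, as did 84.7% of the 21715 genes that reached 1 FPKM at any time point. The share of the 10 is therefore near the background. What set the genes apart from each other was the time at which each was high. PDGFRA and FLT1 were highest at D6, KDR at D4, KIT at D3, FLT4 at D1, PDGFA in hESC, PDGFRB, PDGFC and VEGFA at D15, and VEGFC in cardiomyocytes.

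PDGFRA went from the lowest receptor in hESC to the highest from D3 to cardiomyocytes. Its level was 0.430 FPKM in hESC, 1.55 at D1, 19.5 at D2, 43.0 at D3, 141 at D4, 156 at D5, 173 at D6, 144 at D8, 139 at D10, 91.3 at D15 and 31.7 in cardiomyocytes. The values from D4 to D10 formed a plateau, with no step of 2-fold among them, while D2, D3 and D4 each stood at least 2-fold above the time point before. The step to D2 was the widest, with a difference of 3.01 in log2(FPKM + 1). In the annotation GENCODE 29, 15.8% of the exon bases of PDGFRA are shared with a readthrough transcript from the neighbour FIP1L1 on the same strand, and how the authors divided such reads is not given in the sources used here. FIP1L1 itself stood between 24.0 FPKM at D15 and 48.6 at D6, without the course seen for PDGFRA.

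PDGFRB had 2 high phases where PDGFRA had 1. It stood at 4.55 FPKM in hESC, 2.27 at D1, 9.78 at D2, 7.64 at D3, 29.9 at D4, 30.0 at D5, 24.2 at D6, 13.9 at D8, 12.8 at D10, 49.8 at D15 and 14.3 in cardiomyocytes. The first high phase, D4 to D6, fell inside the PDGFRA plateau, and the second was the single D15 column, before purification. FPKM is per length, so the levels of the receptors can be compared. PDGFRA held 8.64% of the summed level of both PDGF receptors in hESC, 82.5% at D4, 91.5% at D10, 64.7% at D15 and 68.9% in cardiomyocytes. At D15 the summed level of 17 pericyte, smooth muscle and fibroblast markers was also at its highest, 4065 FPKM against 1482 at D10 and 2045 in cardiomyocytes. Before D15 the sum did not run with PDGFRB. The sum rose from 581 FPKM at D4 to 925 at D5, 1116 at D6 and 1423 at D8, while PDGFRB fell from D5 to D10. Most of the D15 sum came from the collagens COL3A1 (2037 FPKM), COL1A1 (733) and COL1A2 (366). Of the 17, 8 were higher and 0 lower at D15 than at D10, against 6.32% and 9.51% of all genes. Some were highest elsewhere, such as RGS5 at D8 and ACTA2 in cardiomyocytes. None of these markers was at 0 throughout, and their part in the PDGFRB value was not tested.

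KIT was a gene of the D3 column. It stood at 4.27 FPKM in hESC, 5.77 at D1, 6.79 at D2, 15.2 at D3, 7.14 at D4, 7.40 at D5, 6.55 at D6, 4.30 at D8, 3.87 at D10, 1.69 at D15 and 0.850 in cardiomyocytes. D3 stood 2-fold above D2, and D4 missed the 2-fold mark below D3 with a log2 difference of -0.995. From D6 on each value was below the one before. KITLG, the ligand of KIT, was already at 19.8 FPKM at D1, after 1.16 in hESC.

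**Figure D1:**
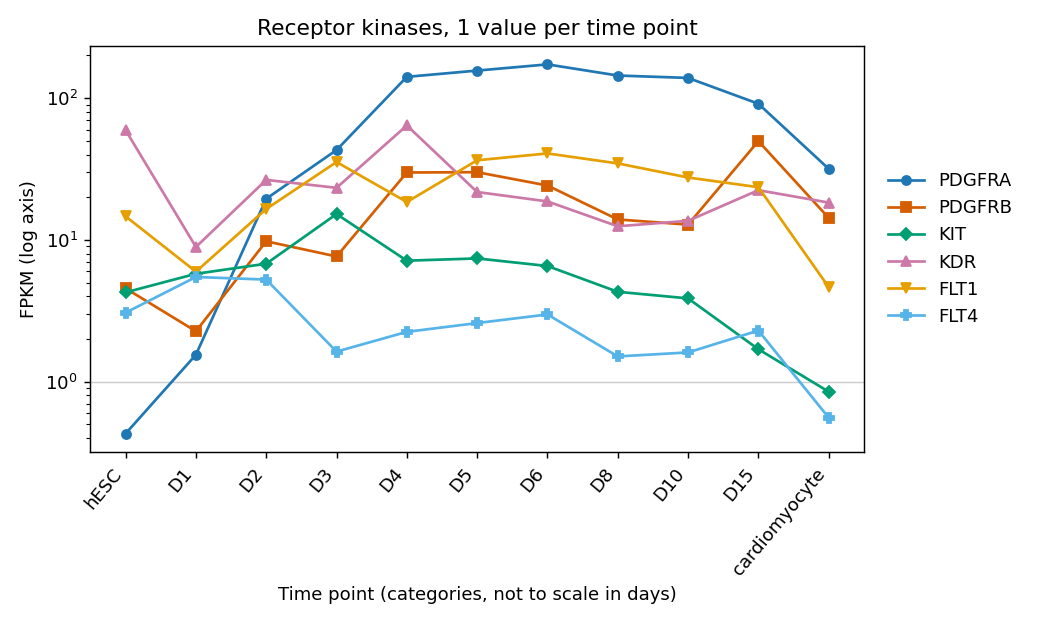
FPKM of the 6 receptor genes on a log axis against the 11 time points (categories, 1 value for 2 libraries each). The PDGFRA line climbs from 0.430 FPKM in hESC to 173 at D6, KDR has high points in hESC (59.4) and at D4 (64.2), and KIT has its high point at D3 (15.2).

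KDR was high at the start, low after 1 day, and high again for a single column at D4. It stood at 59.4 FPKM in hESC, 8.92 at D1, 26.5 at D2, 23.3 at D3, 64.2 at D4, 21.8 at D5, 18.7 at D6, 12.5 at D8, 13.6 at D10, 22.4 at D15 and 18.3 in cardiomyocytes. The difference from hESC to D1 was -2.61 in log2(FPKM + 1), that from D3 to D4 was 1.42, and that from D4 to D5 was -1.52. The hESC and D4 levels were close to each other, and the next highest column, D2, was far below both.

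FLT1, which binds the same ligand, ran differently. It stood at 14.7 FPKM in hESC, 5.97 at D1, 16.5 at D2, 35.4 at D3, 18.5 at D4, 36.5 at D5, 40.7 at D6, 34.6 at D8, 27.6 at D10, 23.5 at D15 and 4.65 in cardiomyocytes. The D4 column, where KDR was highest, was a dip for FLT1 between D3 and D5, although neither side of the dip reached 2-fold. The ratio of KDR to FLT1 was accordingly 4.05 in hESC, 0.658 at D3, 3.47 at D4, 0.597 at D5, 0.360 at D8 and 3.94 in cardiomyocytes.

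FLT4 stayed low. It stood at 3.07 FPKM in hESC, 5.48 at D1, 5.25 at D2, 1.63 at D3, 2.25 at D4, 2.59 at D5, 2.98 at D6, 1.51 at D8, 1.61 at D10, 2.29 at D15 and 0.558 in cardiomyocytes. Only D1 and D2 exceeded 5 FPKM, the column of its highest value became D2 after rescaling, and D3 stood 2-fold below D2. Markers of endothelium, the cell type in which KDR, FLT1 and FLT4 are best known, were low for the most part. Of 23 such genes 22 were listed, all but PECAM1, so the level of this marker is unknown here. None of the 22 was at 0 throughout, and 5 reached 5 FPKM at any time point. These were EGFL7 (highest at D15, 41.1 FPKM), ENG and PROX1 (highest in cardiomyocytes, 32.8 and 27.7), NOS3 (highest in hESC, 31.4, where KDR was also high) and SOX17 (highest at D2, 10.8). The median over the 22 was 0.540 FPKM in hESC, 0.830 at D4 and 1.42 at D15, and CDH5, 1 of the 22, stood at 0.725, 0.692 and 2.27. The summed level of the list was 60.7 FPKM in hESC, 34.7 at D4 and 95.9 at D15, and its part in the receptor values was not tested.

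Among the ligands, VEGFA was the most abundant from hESC on except at D2. It stood at 49.2 FPKM in hESC, 30.1 at D1, 19.9 at D2, 30.5 at D3, 35.1 at D4, 33.7 at D5, 51.6 at D6, 76.3 at D8, 142 at D10, 409 at D15 and 234 in cardiomyocytes. The low at D2 and the high at D15 differed by 4.29 in log2(FPKM + 1), the widest range of the 4 ligands on that scale. VEGFA held 53.3% of the summed level of VEGFA, VEGFB, VEGFC, PGF and FIGF (VEGFD) at D5 and 86.0% at D15. In GENCODE 29, 1.30% of the exon bases of VEGFA overlap a gene on the opposite strand. VEGFA answers to low oxygen, and of 20 genes for oxygen sensing and its targets 8 were higher and 0 lower at D15 than at D10. The widest of these rises were those of SLC2A1, a glucose transporter (99.1 to 690 FPKM), and NDRG1 (6.29 to 44.7). HIF1A went down, from 85.8 FPKM to 48.1, short of 2-fold. In the step to cardiomyocytes VEGFA had a log2 difference of -0.80. There 1 of the 20 was higher (LDHA, 228 to 653 FPKM) and 3 were lower, SLC2A1 among them, and the median difference was 0.46. The part of the 20 genes in the VEGFA values was not tested. Between D10 and D15, 6.32% of all genes were higher and 9.51% lower, and among the 10 genes here 2 were higher (PDGFRB and VEGFA) and 0 lower.

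VEGFC appeared later and at a far lower level. It stood at 0.430 FPKM in hESC, 0.132 at D1, 0.194 at D2, 0.263 at D3, 0.327 at D4, 1.43 at D5, 5.61 at D6, 6.08 at D8, 5.85 at D10, 6.10 at D15 and 8.13 in cardiomyocytes. The 5 columns before D5 lay under 1 FPKM and the 5 after it above 5 FPKM, a split chosen from these same values. CCBE1, a secreted factor that promotes the cleavage of VEGFC, was at its highest earlier, with 16.0 FPKM at D4 and 1.23 in cardiomyocytes, and ADAMTS3, the protease involved, ran from 1.25 at D1 to 8.63 in cardiomyocytes.

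The PDGF chains A and C had different courses. PDGFA stood at 32.1 FPKM in hESC, 17.6 at D1, 23.1 at D2, 10.4 at D3, 10.8 at D4, 8.44 at D5, 10.6 at D6, 12.4 at D8, 16.2 at D10, 9.88 at D15 and 11.1 in cardiomyocytes. PDGFC, a chain that must be cut by a protease before it can bind, stood at 2.22 FPKM in hESC, 4.76 at D1, 3.65 at D2, 1.42 at D3, 1.82 at D4, 3.44 at D5, 6.40 at D6, 10.8 at D8, 13.5 at D10, 17.8 at D15 and 11.3 in cardiomyocytes. PDGFA was above PDGFC up to D10 and below it at D15, with nearly equal levels in cardiomyocytes, and its share of the 4 PDGF chains was 75.0% at D2 and 22.4% at D15. PLAT, which can cut PDGFC, stood at 1.69 FPKM in hESC and 97.8 at D15.

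**Figure D2:**
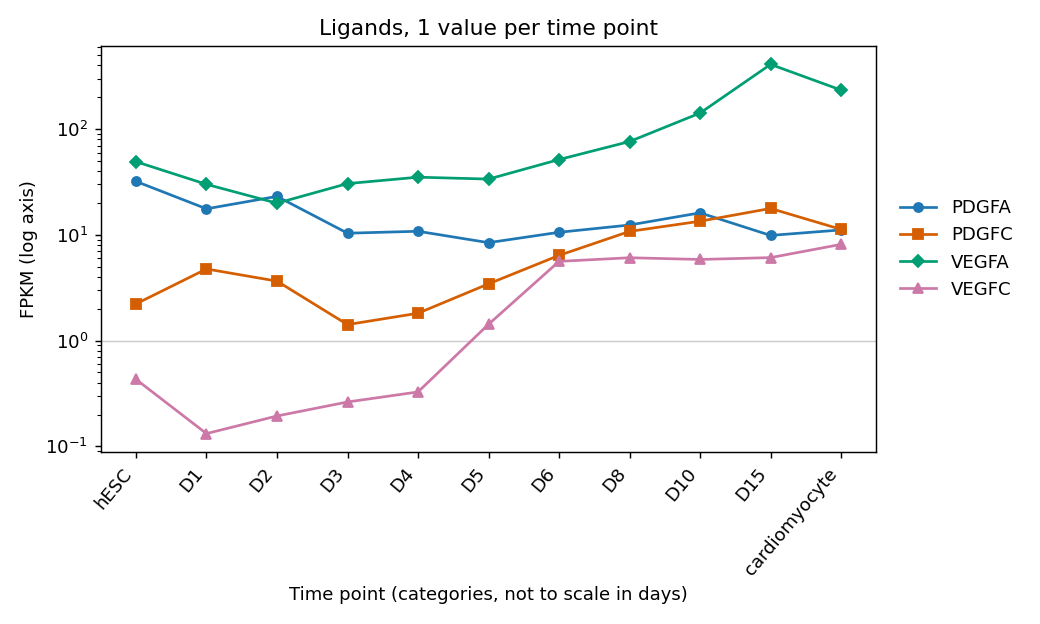
FPKM of the 4 ligand genes on a log axis against the 11 time points (categories, 1 value for 2 libraries each). VEGFA runs from 19.9 FPKM at D2 to 409 at D15, VEGFC passes 1 FPKM at D5, and PDGFC overtakes PDGFA at D15.

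To see when the family changed, the 10 steps between neighbouring time points were compared. At D1, KDR and FLT1 were lower than in hESC and none of the 10 was higher, against 11.1% of all genes lower and 12% higher. At D2 the receptors PDGFRA, PDGFRB, KDR and FLT1 were all higher than at D1, 4 of 10, against 2.66% of all genes, and none was lower (2.34% of all). At D3, PDGFRA, KIT and FLT1 were higher (3.09% of all genes) and FLT4 and PDGFA lower (5.04%). At D4, PDGFRA, PDGFRB and KDR were higher (6.79%) and none lower (6.3%).

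From D5 to D10 only 2 differences reached 2-fold. KDR was the only one of the 10 to be lower at D5 than at D4 (1.26% of all genes), and 0 were higher (3.68%). VEGFC was the only one higher at D6 than at D5 (1.21%), and 0 were lower (6.18%). From D6 to D8 and from D8 to D10 none passed 2-fold, against 1.33% of all genes higher and 0.677% lower at D8, and 1.16% and 1.11% at D10. In the last step, to the purified cardiomyocytes, PDGFRA, PDGFRB, FLT1 and FLT4 were lower and 0 were higher, against 4.07% of all genes lower and 7.23% higher. Here the longer culture and the purification cannot be told apart, and neither can fewer cells of a type and less RNA per cell, as in every unsorted column.

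**Figure D3:**
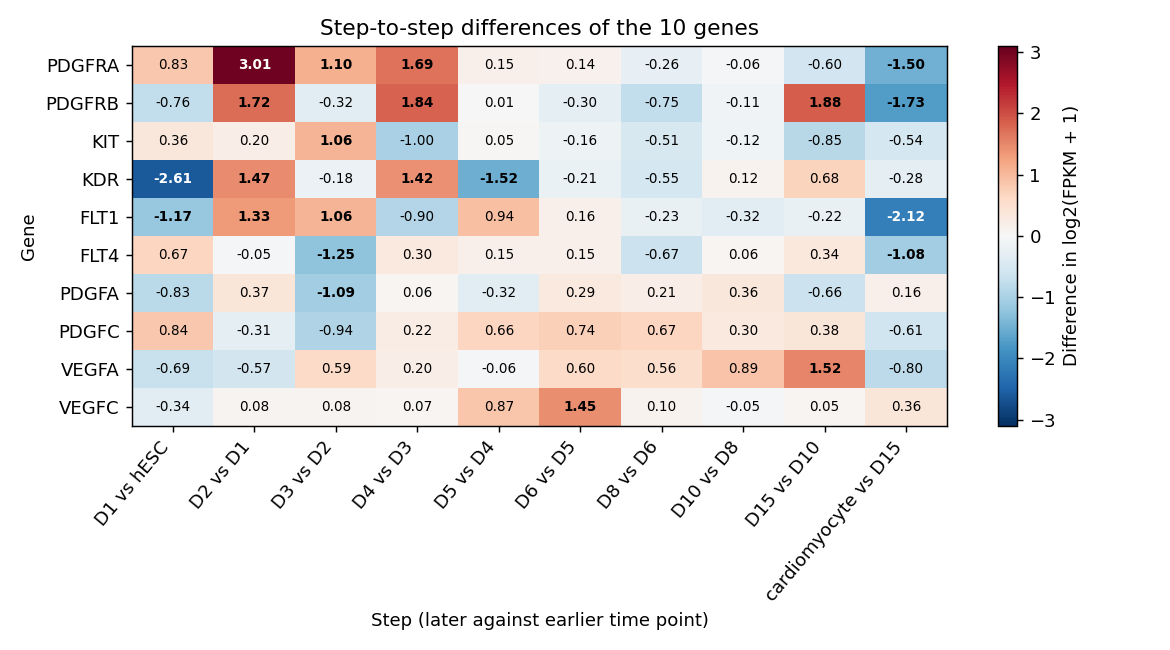
Difference in log2(FPKM + 1) of each of the 10 genes (rows) at each of the 10 steps (columns, later minus earlier time point), with differences of at least 1 in bold. Receptor differences of at least 1 fall in the first 5 steps, at D15 (PDGFRB) and in the last step, and ligand differences of that size appear at D3 (PDGFA), D6 (VEGFC) and D15 (VEGFA).

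Between the ends, cardiomyocytes against hESC, 5 of the 10 genes were higher and 5 lower, with none in between. The higher ones were PDGFRA (log2 difference 4.52), VEGFC (2.67), VEGFA (2.23), PDGFC (1.93) and PDGFRB (1.46), and the lower ones KDR (-1.64), KIT (-1.51), FLT1 (-1.47), PDGFA (-1.45) and FLT4 (-1.39). Among all genes 18.7% were higher and 16.9% lower. The median over the 10 was 0.04 and that over all genes 0.03. The number lower depended on both ends: it was 2 with D1 in place of hESC and 1 with D10 in place of cardiomyocytes, while the number higher was 5 each time.

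Over longer spans the counts were as follows. At D4, PDGFRA and PDGFRB were higher than in hESC (11.9% of all genes) and PDGFA lower (13.3%). At D6, PDGFRA, PDGFRB, FLT1, PDGFC and VEGFC were higher than in hESC (12.1%) and KDR and PDGFA lower (14.1%). At D15, PDGFRA, PDGFRB, PDGFC, VEGFA and VEGFC were higher than at D2 (17.5%) and KIT and PDGFA lower (21.5%). Against D4, D15 had PDGFC, VEGFA and VEGFC higher (10.8%) and KIT and KDR lower (13.4%).

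The sorts show in which of 2 sorted populations the listed RNAs were higher, on each of 2 days. The values, log2 ratios and q-values that follow are those of the authors' deposited tables, whose q-values adjust over all genes the authors tested. The tables hold only genes with q under 0.05, so a gene that is not listed cannot be read as equal. From p and q the number of genes tested was estimated as 16632 at D3 and 13303 at D4, and 27.9% and 36.3% of them were called.

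In the D3 sort 4 of the 10 genes were higher in PMESO cells (15.4% of all genes tested) and 2 were lower (12.5%). In the authors' deposited table, PDGFRA stood at 6.80 FPKM in ROR2-negative and 91.9 in PMESO cells, a 13.5-fold ratio. By the authors' deposited table, KDR stood at 12.7 and 47.3, PDGFRB at 2.00 and 7.96, and KIT at 5.35 and 19.6, ratios of 3.71, 3.98 and 3.66. FLT1 went the other way in the authors' deposited table, with 49.2 FPKM in ROR2-negative and 24.4 in PMESO cells, and so did PDGFA, with 22.5 and 10.2. All 6 carried the smallest q-value in the authors' deposited table of this sort, 0.000375, shared by 2163 genes and set by a smallest p-value of 5e-05. FLT4, PDGFC, VEGFA and VEGFC were not listed.

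In the D4 sort 4 of the 10 were higher in CMESO cells (17.2% of all genes tested) and 4 were lower (19%). PDGFRA was the gene sorted on, so its place among the 4 higher genes was set by the sort. Its 36.7-fold ratio in the authors' deposited table is likewise a description. KDR, its neighbour but 1 on the chromosome, stood in the authors' deposited table at 4.18 FPKM in PDGFRa-negative and 163 in CMESO cells, a 39.0-fold ratio that exceeded that of the sort marker. In the authors' deposited table, PDGFRB stood at 8.43 and 43.4 and FLT1 at 6.10 and 16.1, ratios of 5.15 and 2.65. KIT, which lies between PDGFRA and KDR, stood in the authors' deposited table at 43.6 and 5.94 FPKM, 7.35-fold higher in PDGFRa-negative cells. The q-value of KDR, PDGFRB, FLT1 and KIT was 0.000269, again the smallest in the authors' deposited table of the sort.

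The 3 of these ligands that the D4 table listed were lower in CMESO. By the authors' deposited table, VEGFA stood at 125 FPKM in PDGFRa-negative and 35.0 in CMESO cells, a log2 ratio of -1.83. From the authors' deposited table too, PDGFA stood at 10.7 and 4.43 (-1.28), both at q = 0.000269, and PDGFC at 4.06 and 2.26 (-0.85, q = 0.009). KIT was on the same side as these ligands, whereas VEGFB, a VEGF ligand outside the 10 genes, was higher in CMESO. FLT4 and VEGFC were listed in neither sort.

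**Figure D4:**
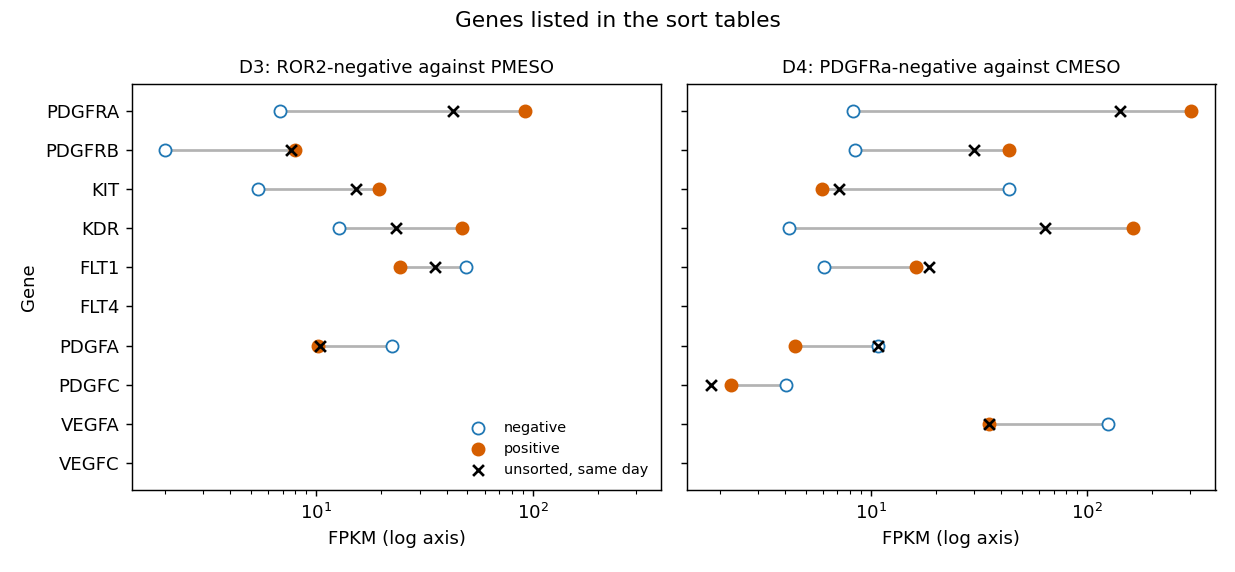
FPKM on a log axis of the genes listed in the D3 (left) and D4 (right) sort tables: open circles are the negative population, filled circles the positive one, and crosses the unsorted cells of the same day, which were normalized in another table. KIT and FLT1 lie on opposite sides in the 2 panels, and KDR spans 4.18 to 163 FPKM at D4.

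KIT and FLT1 took different sides in the 2 sorts. In the authors' deposited table of each sort, KIT had a log2 ratio of 1.87 at D3 and -2.88 at D4, and FLT1 had -1.01 and 1.40. The sorts differ in day and marker, and no test of the difference between them can be made from the deposited values. PDGFRA, PDGFRB and KDR were on the positive side both times, PDGFRA at D4 by the sort itself, and PDGFA on the negative side both times.

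Most endoderm markers were on the same side as KIT in both sorts. Of all genes tested, 15.4% were higher and 12.5% lower in PMESO at D3, and 17.2% and 19% in CMESO at D4. Of 8 endoderm markers 7 were called at D3, all higher in PMESO. Their summed levels in the authors' deposited table were 9.71 FPKM in ROR2-negative and 84.0 in PMESO cells. At D4 again 7 were called, 5 of them lower in CMESO by the authors' deposited table, among them FOXA2 (23.0 and 3.16 FPKM), FOXA1 (19.2 and 3.74), CXCR4 (15.1 and 2.41) and SOX17 (10.1 and 2.30). GATA6 and AFP were higher in CMESO. The levels in the authors' deposited table, summed over the 7, were 93.4 and 69.5 FPKM, and none of them was at 0 in either population. Over the time course the summed level of all 8 was 42.4 FPKM at D2, 31.8 at D3, 51.9 at D4 and 78.1 at D8. KIT stood at 15.2 FPKM at D3, its highest value, and at 4.30 at D8. Of 9 germ cell and melanocyte markers 1 was higher and 3 lower in PMESO, and 2 were higher and 3 lower in CMESO. For 14 blood markers these numbers were 2 and 1, then 3 and 1. Pluripotency markers were on the negative side of both sorts, 7 of 8 each time, with POU5F1 at 63.3 and 9.30 FPKM at D4 in the authors' deposited table. Of 13 mesoderm markers with a time-course value 12 were called at D3, all on the positive side. At D4 7 were called, 5 of them on the positive side. The 12 called at D3 include ROR2, the D3 sort marker, whose side was set by the sort. The part of these markers in the KIT, VEGFA and PDGFA values was not tested. Of 20 genes for oxygen sensing and its targets 7 were called at D4, near the 36.3% of all genes tested. By the authors' deposited table EPAS1, EGLN1, EGLN2, NDRG1, PDK1 and P4HA1 were higher in CMESO. ADM was lower there (47.4 and 21.6 FPKM), as was VEGFA. The part of these genes in the VEGFA value was not tested. Of 23 endothelial markers 6 were called at D3 (5 higher in PMESO) and 8 at D4 (5 higher in CMESO). Both counts were near the shares over all genes tested, 27.9% and 36.3%. In the authors' deposited table TEK was the gene lower in PMESO (5.31 FPKM in ROR2-negative and 0.600 in PMESO cells). Those lower in CMESO were ENG, VWF and SOX17, and SOX17 is in this list as well as in the endoderm list. The levels of the 8 at D4 in the authors' deposited table summed to 31.7 FPKM in PDGFRa-negative and 35.1 in CMESO cells. Without SOX17 the sums from the authors' deposited table were 21.6 and 32.8 FPKM at D4, over 7 genes, and 8.65 and 13.6 at D3, over 5. EGFL7 alone stood at 13.1 and 18.7 FPKM at D4 in the authors' deposited table. The part of these genes in the KDR and FLT1 values was not tested.

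The unsorted value of the same day was set beside each sorted pair, with the caution that the tables were normalized apart. At D3 the unsorted value lay between the 2 sorted values for all 6 genes listed, against 66.6% of the 4643 called genes with a time-course value. At D4 it did so for 5 of 8, the sort marker PDGFRA among them, against 61.4% of 4820. The exceptions at D4, with sorted values from the authors' deposited table, were FLT1 (18.5 FPKM unsorted, 6.10 and 16.1 sorted), PDGFA (10.8, against 10.7 and 4.43) and PDGFC (1.82, against 4.06 and 2.26). The D4 sort left out ROR2-negative cells, which the unsorted D4 column holds.

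Other ligands, receptors and co-receptors of the family came from a list of 14 genes, with FIGF entered also as VEGFD. Of these 12 reached 1 FPKM. In cardiomyocytes against hESC 6 were higher and 1 was lower, with a median log2 difference of 1.10. The neuropilins, co-receptors that bind VEGF beside the kinases, were the most abundant of the list in cardiomyocytes: NRP1 stood at 1.51 FPKM in hESC, 30.4 at D3 and 105 in cardiomyocytes, and NRP2 at 20.1, 40.8 and 105. VEGFB stood at 15.7 and 84.0 at the ends, PDGFD at 0.860 and 18.3, CSF1 at 0.609 and 8.48, and KITLG at 1.16 and 4.47. PDGFB was the one lower gene, with 10.3 FPKM in hESC and 2.46 in cardiomyocytes, and 0.288 at D1. PGF, a ligand of FLT1, was high in between, with 0.592 at D1, 17.3 at D6 and 3.01 in cardiomyocytes.

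**Figure D5:**
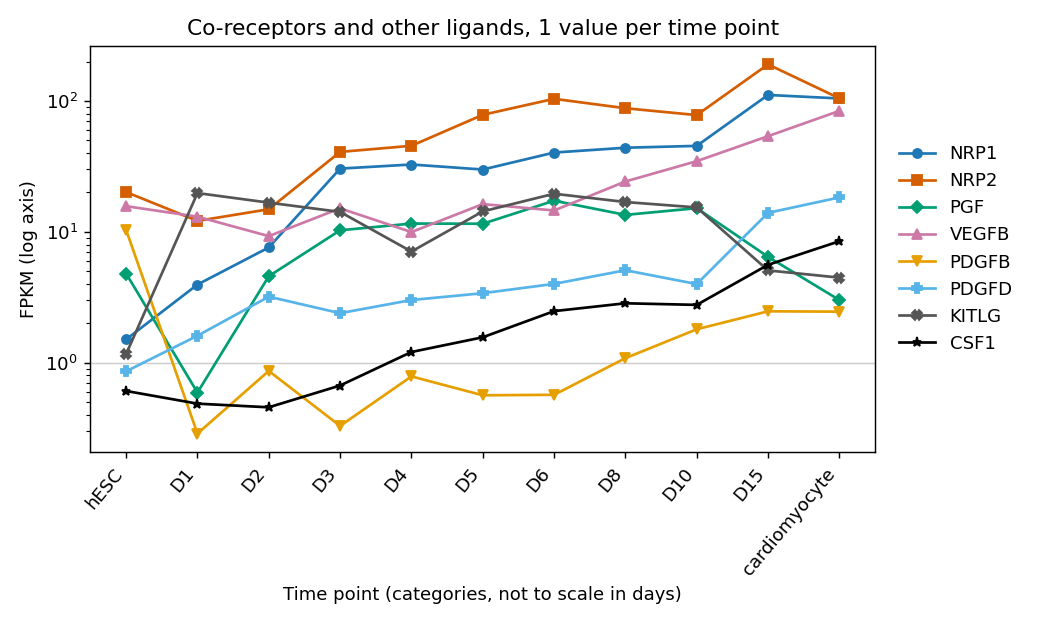
FPKM of 2 co-receptors and 6 ligands outside the 10 genes, on a log axis against the 11 time points (categories, 1 value for 2 libraries each). NRP1 and NRP2 are both at 105 FPKM in cardiomyocytes, and PDGFB drops from 10.3 in hESC to 0.288 at D1.

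The other genes of the list were low. IL34 ranged from 0.247 FPKM at D6 to 2.18 at D1, FLT3LG from 0.295 at D8 to 2.25 in hESC, CSF1R from 0.264 at D2 to 1.91 at D5, and PDGFRL from 0.422 at D10 to 2.35 in cardiomyocytes. FLT3 and FIGF stayed under 1 FPKM. FLT3 and CSF1R are the remaining receptors of the KIT and PDGF receptor class.

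In the D3 sort 8 of the 14 were called (27.9% of all genes tested), 4 in each direction. In the authors' deposited table, NRP1 stood at 2.45 FPKM in ROR2-negative and 56.8 in PMESO cells, a 23.1-fold ratio above that of PDGFRA, and NRP2 at 13.5 and 84.7. By the authors' deposited table, PGF stood at 4.63 and 23.8 and VEGFB at 13.7 and 24.4, all 4 with q = 0.000375. PDGFB, IL34, CSF1R and PDGFRL were lower in PMESO, each at no more than 2.01 FPKM in either population of the authors' deposited table. In the D4 sort 5 were called (36.3% of all genes tested). By the authors' deposited table, NRP1 (3.36 and 62.6), NRP2 (12.7 and 137) and VEGFB (11.2 and 18.7) were higher in CMESO, and PDGFB (1.85 and 0.600) and PDGFD (3.37 and 1.60) lower.

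Genes that act downstream of the receptors were taken from a further list. Of 28 signalling genes, such as phospholipase C, SRC kinases, adaptors and PI3-kinase subunits, 8 were called at D3 (7 higher in PMESO) and 6 at D4 (3 higher in CMESO). Of all genes tested 27.9% were called at D3 and 36.3% at D4, so the D3 count was near that share and the D4 count below it. STAT3 was lower in PMESO, and PLCG2, PIK3R2 and PTPRJ were lower in CMESO. In the authors' deposited table PTPRJ was higher in PMESO (4.12 and 7.51 FPKM) and lower in CMESO (9.02 and 5.68). By the authors' deposited table SOS2 was higher in the positive cells of both sorts (9.08 and 12.4 FPKM at D3, 12.1 and 16.8 at D4). SRC, a kinase recruited to PDGF and VEGF receptors, was higher in the positive cells of both sorts in the authors' deposited table (12.8 and 24.5 FPKM at D3, 34.4 and 61.3 at D4), as was CBLB, a ubiquitin ligase that turns over activated receptors (18.2 and 40.0, then 32.4 and 50.6). Among 12 genes that process or bind the ligands, 6 were called at D3 and 9 at D4. In the authors' deposited table, CCBE1 stood at 0.415 and 7.67 FPKM at D3 and 2.76 and 21.9 at D4, and PLAT at 2.76 and 1.23 at D3 and 2.86 and 42.4 at D4.

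The other neighbours of PDGFRA, KIT and KDR on chromosome 4 were followed as well. CHIC2 stood at 5.32 FPKM in hESC, 25.2 at D6 and 13.6 in cardiomyocytes, and LNX1 at 6.93, 15.4 and 6.61. TMEM165 ranged from 34.8 at D6 to 74.1 at D1, CLOCK from 8.21 at D15 to 18.2 in cardiomyocytes and SCFD2 from 3.29 in hESC to 9.01 at D5. SRD5A3 ranged from 2.86 at D3 to 14.2 at D1. GSX2 stayed under 1 FPKM. None of these 8 genes was listed in the D3 sort, and CHIC2 (10.3 and 39.8 FPKM, q = 0.0456) and SRD5A3 (3.55 and 9.07) were higher in CMESO at D4 in the authors' deposited table. CHIC2 shares the deposited locus interval of PDGFRA, and how the authors divided reads between them is not given in the sources used here.

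The courses of the genes were also compared with those of 11567 protein-coding genes that reached 5 FPKM, by Pearson's r of log2(FPKM + 1) over 11 time points. These r values describe 11 columns that every gene shares. The genes most like PDGFRA were UNC5C (r = 0.965), FREM1 (0.964) and DAB2 (0.962), and those most like PDGFRB were ITGA8 (0.954), VASN (0.948) and ECE1 (0.946). KIT was most like ZNF730 (0.969), RECQL4 (0.961) and PDE7A (0.952). The nearest genes to KDR were HELZ2 (0.855), HLA-B (0.853) and SGK1 (0.852), all highest in hESC. FLT1 was most like CCDC74A (0.928), SLITRK4 (0.916) and FGFR3 (0.889), and genes like FLT4 included ZNF114 (0.930) and SLC43A3 (0.927).

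Among the ligands, VEGFC was closest to heart muscle genes, with NKX2-5 (r = 0.988), UNC45B (0.986) and MYH6 (0.985). VEGFA was closest to TMEM178A (0.979), the sarcomere gene ACTN2 (0.978) and NPR3 (0.972). PDGFC was closest to BMP7 (0.966), SLC16A12 (0.955) and MMP15 (0.939), and PDGFA to C6orf48 (0.934), CERS4 (0.931) and AARS (0.924). Among the 10 genes themselves, PDGFC and VEGFC (0.874), PDGFC and VEGFA (0.837), PDGFRA and PDGFRB (0.823) and VEGFA and VEGFC (0.819) had the most similar courses. KIT and VEGFA (-0.849) and PDGFRA and PDGFA (-0.778) had the most opposed ones.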

How the data were processed

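RNA depleted of ribosomal RNA (500 ng per sample, 10 PCR cycles, read pairs of 100 nt) was sequenced from 30 libraries, per the labels' protocols. The authors deposited 3 tables, made with TopHat2 2.0.8b, Bowtie2 2.1.0.0 and Cufflinks on hg19, per the submitters' processing notes. Annotation, strand setting and scaling: not given in the sources used here. The time-course table holds the authors' FPKM, 1 value for the 2 libraries of a time point (unit taken from the pipeline and values). Per the file headers, the sort tables hold the authors' FPKM of both populations, the log2 of their ratio, the ratio itself, a test statistic (a score, not used here), the p-value and the q-value. The files give no counts or depth, and low values do not step in 1 fixed ratio between columns, so no interval is given.

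Genes of at least 1 FPKM at 1 or more time points were kept. Differences were taken on log2(FPKM + 1) with a pseudocount of 1 and called at 1 or more, without a test; such differences understate the change of low genes. Sort calls are the authors' (q under 0.05). Nothing in the labels tells if the paired libraries came from separate cultures. The deposited p-values then measure only the spread between them, which may be technical. Locus starts were made 1-based: lengths matched a GENCODE 29 gene for 2171 loci with 0-based starts, and for 63 otherwise. GENCODE 29 gave gene types and exon overlap, RefSeq the promoters (7 of 10 genes matched). The 10 genes and all gene lists were chosen with earlier results of these data known. The named genes are the 10, all genes of the list of other ligands and receptors, genes called in a sort, and for each of the 10 the 3 genes with the most similar course; from other lists a few were named after their values were seen. Some genes that this rule names are not reported here. Lists for blood (14 genes), germ cell and melanocyte (9 genes), and cardiomyocyte markers (10 genes) were run as well. At D4 these had 3, 2 and 8 genes higher and 1, 3 and 0 lower in CMESO. Of all genes tested at D4, 17.2% were higher and 19% lower. At D3 the lists had 2, 1 and 3 genes higher and 1, 3 and 2 lower in PMESO, against 15.4% and 12.5%. The tables were handled with Python 3.11.15 and pandas 2.3.3, and the calling and likeness steps were tested on simulated data. Alternatives were a pseudocount of 0.1, rescaling, no filter, a 1.5-fold threshold and stricter sort calls.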

Additional observations from a re-analysis of the deposited data

How the results depend on the processing

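The 10 genes stayed at least 2-fold apart between highest and lowest time point under every alternative run, also without hESC, D15 and cardiomyocytes (10 of 10), and the 5 higher and 5 lower in cardiomyocytes against hESC stayed at those numbers with a pseudocount of 0.1, rescaling, no filter and a 1.5-fold threshold. Replacing an end of that comparison, and leaving SOX17 out of the endothelial markers, were chosen after seeing the data. With D1 in place of hESC, 2 of the 10 genes and 2 genes of the list of other ligands and receptors were lower (main values 5 and 1). With D10 in place of cardiomyocytes these numbers were 1 and 2, and the cause was not tested. With a pseudocount of 0.1 or a 1.5-fold threshold, 3 genes of that list were lower. Over the 10 steps, 13 differences of the 10 genes were higher and 9 lower, and a 1.5-fold threshold gave 25 and 22. The list of other ligands and receptors had 9 higher and 5 lower over the steps, against 18 and 13 with a pseudocount of 0.1 and 23 and 14 at 1.5-fold. In the sorts, asking for 2-fold in log2(FPKM + 1) left 1 of the 2 genes lower in PMESO at D3 (PDGFA, without FLT1) and 3 of the 4 lower in CMESO at D4 (without PDGFC), and of the other list 1 of 4 lower at D3 and 0 of 2 lower at D4. The last changes follow from the size of change asked for. Of 120 single differences and highest columns, 7 crossed 2-fold with a pseudocount of 0.1, and 3 crossed it with rescaling (PDGFA at D1, KDR at D15 and VEGFA from D15 to cardiomyocytes), none reversing. Rescaling also moved the highest FLT4 column to D2. No paired analysis was possible because the tables give no library apart, and for the same reason no replicate could be left out. Depth is unknown, so the precision of low values, such as VEGFC before D5 and PDGFRA in hESC, cannot be given.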
